A study of Homo sapiens with 11 samples.

Results

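PTAFR, NAV3 and SORL1 rose, and TBC1D30, ALDH1A3 and FOXD1 fell, more steeply than nearly all other genes when MOLM-13 cells were exposed to MI-503. These 6 genes, of 38557 in the annotation of the counts, were chosen by the size of that response, the fitted change in MI-503 against DMSO. MOLM-13 is a human acute myeloid leukemia line with a rearranged KMT2A gene, and MI-503 is an inhibitor of Menin, the protein that KMT2A needs at its target genes. RNA was sequenced after 72 h, with 4 libraries of cells in the solvent DMSO and 4 of cells in MI-503 at 1 µM. A further 3 libraries, numbered 1, 2 and 4, came from cells that also received PR-957, which blocks the immunoproteasome, at 100 nM, here called the combination. PR-957 alone was not analysed here, so its part is seen only on top of MI-503, and all cells are of 1 line. Whether replicates were separate cultures is not stated in the labels, and p-values then measure only the spread between these libraries.

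The genes belong to different systems. PTAFR encodes the G protein-coupled receptor for platelet-activating factor, a lipid messenger through which myeloid cells respond in inflammation. NAV3 is a neuron navigator, a protein that tracks the growing ends of microtubules. SORL1 is a sorting receptor of the VPS10 family that carries cargo between the Golgi and endosomes together with the retromer coat. TBC1D30 holds a TBC domain, the domain by which proteins of its family make Rab GTPases hydrolyze GTP. ALDH1A3 oxidizes retinaldehyde to retinoic acid, the ligand of the RAR receptors that drive myeloid maturation. FOXD1 is a forkhead transcription factor known from the development of the kidney stroma.

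Their promoters are shown because the first 3 moved up together and the others moved down together. RefSeq sequences of GRCh38.p14 were found for 7 transcription starts of 5 of the genes, all but TBC1D30. Each is the 150 bases before the start, written 5′ to 3′ on the strand of the gene, with matches to the searched motifs in capitals on either strand. Both NAV3 windows lie inside the gene, which begins at 77571856, so its outermost annotated start has no window. PTAFR start 2 also lies inside its gene, and the window of PTAFR start 1 overlaps the annotated 5′ end.
PTAFR, start 1, chr1:28193857-28194006, minus strand: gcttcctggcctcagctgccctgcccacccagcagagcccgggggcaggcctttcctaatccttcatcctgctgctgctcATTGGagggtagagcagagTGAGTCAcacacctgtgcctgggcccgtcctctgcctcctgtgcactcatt
PTAFR, start 2, chr1:28176691-28176840, minus strand: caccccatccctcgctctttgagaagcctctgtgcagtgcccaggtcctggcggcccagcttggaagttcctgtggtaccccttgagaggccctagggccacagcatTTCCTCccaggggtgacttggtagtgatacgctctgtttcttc
NAV3, start 1, chr12:77830744-77830893, plus strand: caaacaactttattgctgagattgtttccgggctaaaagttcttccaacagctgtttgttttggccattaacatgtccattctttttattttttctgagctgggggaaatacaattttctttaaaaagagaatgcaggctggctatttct
NAV3, start 2, chr12:78036464-78036613, plus strand: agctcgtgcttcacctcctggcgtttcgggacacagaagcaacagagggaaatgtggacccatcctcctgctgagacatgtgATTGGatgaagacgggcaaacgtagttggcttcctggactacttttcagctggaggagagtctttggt
SORL1, chr11:121452164-121452313, plus strand: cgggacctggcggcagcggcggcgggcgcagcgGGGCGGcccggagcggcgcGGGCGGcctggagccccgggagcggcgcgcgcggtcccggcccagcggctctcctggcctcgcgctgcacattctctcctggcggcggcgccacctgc
ALDH1A3, chr15:100879681-100879830, plus strand: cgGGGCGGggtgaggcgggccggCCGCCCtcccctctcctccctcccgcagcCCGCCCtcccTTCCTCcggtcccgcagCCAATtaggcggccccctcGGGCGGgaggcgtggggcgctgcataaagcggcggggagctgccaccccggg
FOXD1, chr5:73448778-73448927, minus strand: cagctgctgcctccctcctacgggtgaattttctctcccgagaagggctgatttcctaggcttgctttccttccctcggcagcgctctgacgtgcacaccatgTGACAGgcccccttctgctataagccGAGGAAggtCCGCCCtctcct

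The promoters differed widely in base composition, also within each direction. SORL1 held 26 CpG dinucleotides in 150 bases, more than 97.6% of the 34943 promoters of that length, whose median was 7. ALDH1A3 held 17, FOXD1 held 7, the 2 starts of PTAFR 2 and 3, and those of NAV3 1 and 5. G and C made up 84.0% of the SORL1 sequence and 36.0% of the one before NAV3 start 1, against a median of 60.0%. The counts are per gene and do not tell which of several starts was used.

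Of 9 motifs searched, 5 matched and none of the matches overlapped. The GC box GGGCGG, present in 36.7% of all promoters, matched 2 times in SORL1, 4 times in ALDH1A3 and 1 time in FOXD1. CCAAT (23.5% of promoters) matched in PTAFR start 1, NAV3 start 2 and ALDH1A3. The PU.1 core GAGGAA (14.8%) matched in PTAFR start 2, ALDH1A3 and FOXD1. The AP-1 motif TGANTCA (4.18%) matched in PTAFR start 1, and the MEIS motif TGACAG (8.19%) in FOXD1. TATAAA (6.72%), the E-box CACGTG (4.55%), the C/EBP motif TTGCNNAA (5.02%) and the forkhead motif TGTTTAC (1.74%) had no match in these windows. In these windows no motif was shared by the 3 rising genes, while ALDH1A3 and FOXD1 shared the GC box and the PU.1 core. The outermost annotated start of NAV3 was not searched.

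Totals ran from 18.9 to 41.2 M counted fragments per library, and 14683 genes passed the filter on low counts, all 6 genes described here among them. Of 9 myeloid markers, 7 reached a level of 1 CPM (counts relative to the scaled library total) in DMSO, with ANPEP and CEBPE below it, and the summed markers of T cells, erythroid cells and epithelia stayed at or under 0.276 CPM in every library. The B cell marker PAX5 was present (46.6 CPM in DMSO), whereas MS4A1 had 0 counts, and the 4 B cell markers summed to 48.8–51.5 CPM in DMSO, 33.6–34.2 in MI-503 and 24.1–27.7 in the combination. The 9 myeloid markers summed to 1500–1587 CPM in DMSO, 1816–1953 in MI-503 and 1698–2086 in the combination. The most abundant of them made up a large part of this sum (769 CPM in DMSO). The next most abundant had 324 CPM in DMSO and ranged from 174 to 333 CPM over all libraries, so not every marker rose. The part of these shifts in the results was not tested. Combination replicate 1 stood apart, with 36 of 10041 genes over 2-fold away from the other combination libraries; replicates 4 and 2 had 13 and 4 such genes and no other library had more than 1.

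PTAFR (chromosome 1, 28147166 to 28193936, minus strand, 4 exon blocks, hg38) was low in DMSO, at 2.77, 5.10, 2.32 and 3.13 CPM in replicates 1 to 4. Its DMSO mean lay above that of 28.6% of the tested genes. In MI-503 it stood at 30.3, 31.0, 31.2 and 33.2 CPM. The combination gave 17.6, 15.2 and 19.3 CPM in replicates 1, 2 and 4. The 3 groups were fully separate, with the combination between the others. PTAFR was 9.44-fold higher in MI-503 than in DMSO, 3.25 on the log2 scale (SE 0.14). This contrast chose the gene, so its values in it, and those of the other 5 genes, are a description without a test; libraries of these groups did not overlap for 50.3% of tested genes (21.2% higher and 29.1% lower). In bulk RNA, fewer cells that express a gene and less of its RNA per cell cannot be told apart.

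NAV3 (chromosome 12, 77571856 to 78213010, plus strand, 42 exon blocks) spans 641 kb, longer than 99.6% of the tested genes. It was at 2.09, 3.22, 1.71 and 2.51 CPM in DMSO and at 18.3, 17.3, 23.8 and 25.3 CPM in MI-503. The combination spread more widely, with 12.5, 15.9 and 22.4 CPM. All libraries with MI-503 lay above all DMSO libraries, and the combination overlapped MI-503. The log2 fold change in MI-503 was 3.15 (SE 0.21), an 8.89-fold rise.

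SORL1 (chromosome 11, 121452314 to 121633763, plus strand, 48 exon blocks) was the most abundant of the rising genes in CPM. DMSO replicates held 11.9, 14.2, 11 and 11.2 CPM and MI-503 replicates 89.8, 92.1, 97.6 and 96.2 CPM. In the combination, values of 60.1, 58.8 and 71.4 CPM fell between the other groups without touching either. The rise in MI-503 was 7.79-fold, or 2.96 on the log2 scale (SE 0.08), with the smallest SE of the 6 genes.

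TBC1D30 (chromosome 12, 64759497 to 64881033, plus strand, 18 exon blocks) was the most abundant of the falling genes in CPM and the most uneven within DMSO. Its DMSO libraries ran at 98.3, 136, 108 and 70.0 CPM. MI-503 brought 11.5, 15.3, 16.8 and 15.4 CPM, and the combination 9.87, 14.2 and 9.64 CPM. The lowest DMSO library was still far above the highest library with MI-503, whereas the treated groups overlapped. The fall in MI-503 was 6.99-fold, a log2 fold change of −2.80 (SE 0.17).

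ALDH1A3 (chromosome 15, 100879831 to 100916626, plus strand, 13 exon blocks) shares 49.4% of its exon bases with another annotated gene, and fragments there were left out of the counts. What remained gave 28.1, 42.9, 29.0 and 27.8 CPM in DMSO. MI-503 libraries held 4.21, 5.67, 3.96 and 4.42 CPM, and combination libraries 2.74, 4.52 and 3.09 CPM. Replicate 2 was the highest library in each of the 3 groups. The fall in MI-503 was 6.99-fold, with a log2 fold change of −2.78 (SE 0.16). ALDH1A3 was the only retinaldehyde dehydrogenase of its subfamily with more than traces of RNA, since ALDH1A1 had 0 counts and ALDH1A2 had 7 over all libraries.

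FOXD1 (chromosome 5, 73446266 to 73448777, minus strand) lies in 1 exon block of 2.51 kb. DMSO replicates gave 72.9, 62.8, 81.8 and 76.4 CPM, and MI-503 replicates 14.1, 15.8, 14.8 and 16.6 CPM. The combination gave 15.0, 19.7 and 26.1 CPM. Replicate 1 of the combination lay inside the MI-503 range and the other replicates above it, all far below DMSO. The fall in MI-503 was 4.79-fold, a log2 fold change of −2.26 (SE 0.12).

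**Figure D1:**
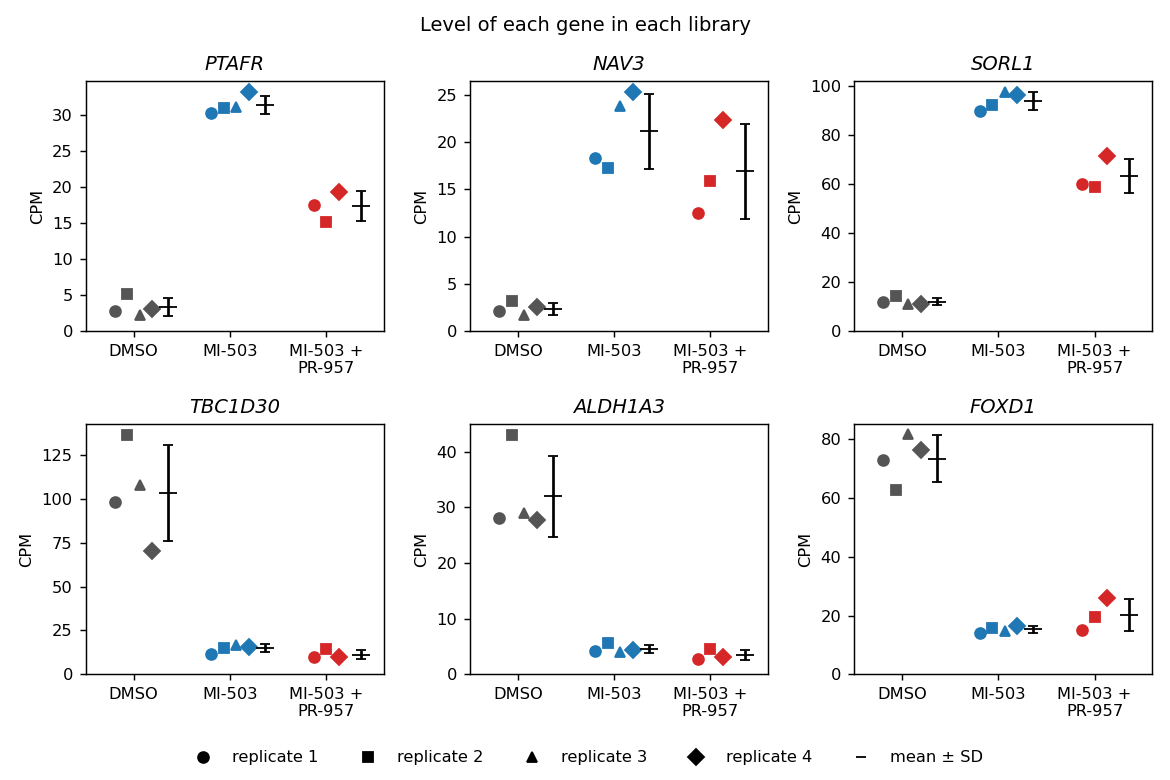
CPM of each gene in every library (linear axis, marker shape by replicate), by group, with the mean ± SD beside the points. SORL1 and PTAFR in the combination lie between DMSO and MI-503 without overlap, while TBC1D30 and ALDH1A3 overlap between the treated groups.

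The choice of genes ended where their neighbors in rank were close. Among called genes of at least 5 mean CPM without overlap between the groups, 2111 rose and 3622 fell. TLR4, the receptor for bacterial lipopolysaccharide, ranked above PTAFR with 3.48, and BPI, a bactericidal protein of neutrophil granules, stood just below SORL1 with 2.87. LOC102724621 (2.79) and HAL (2.74), which deaminates histidine, came next. In the other direction the early-response factor EGR1 stood beside TBC1D30 at −2.80. Just under FOXD1 came MT2A (−2.21), a metal-binding metallothionein, EFNA5 (−2.03), an ephrin ligand, and PBX3 (−2.02), a homeobox partner of HOX proteins. Among all tested genes, those of low counts included, PTAFR, NAV3 and SORL1 ranked 21, 24 and 26 from the top, and TBC1D30, ALDH1A3 and FOXD1 ranked 6, 7 and 16 from the bottom.

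Relative to exon length, the order of the 6 genes turned over. On the RPKM scale (CPM per kb of exon), FOXD1 led in DMSO at 29.3 ± 3.19 (SD, n = 4). TBC1D30 (11.4 ± 3.04) and ALDH1A3 (9.21 ± 2.11) followed and overlapped each other. SORL1 (1.11 ± 0.137) and PTAFR (0.778 ± 0.286) overlapped as well, and NAV3 came last at 0.121 ± 0.0327. In MI-503 the order was SORL1 (8.65 ± 0.331), PTAFR (7.35 ± 0.293) and FOXD1 (6.10 ± 0.440), each clear of the next. TBC1D30 (1.64 ± 0.251), ALDH1A3 (1.32 ± 0.218) and NAV3 (1.07 ± 0.199) then followed, each overlapping its neighbor. In the combination FOXD1 (8.07 ± 2.23, n = 3) and SORL1 (5.84 ± 0.639) overlapped, PTAFR stood alone at 4.06 ± 0.482, and the other 3 overlapped in sequence between 0.634 and 1.58. The level of ALDH1A3 is understated on this scale, because the fragments of its shared exons are missing.

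The 6 genes varied between replicates more than genes of similar abundance. The fitted coefficient of variation was 16.3% for NAV3, 15.5% for TBC1D30, 14.2% for ALDH1A3, 11.5% for FOXD1, 10.4% for PTAFR and 6.45% for SORL1. The trend at the same abundance was 5.41% to 7.65%. The ratio of a gene's own value to the trend lay above that of 83.8% of tested genes for SORL1 and of 99.7% for TBC1D30, with the other 4 between. DMSO replicate 2 was the highest DMSO library for PTAFR, NAV3, SORL1, TBC1D30 and ALDH1A3 and the lowest for FOXD1.

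The combination was compared with DMSO to see whether the response is present under both drugs. All 6 genes kept the direction they had in MI-503: 3 were called higher and 3 lower at an edgeR adjusted p under 0.05, where 64.5% of all tested genes were called (31.7% higher and 32.8% lower). None of the 6 overlapped between these groups, which held for 60.5% of tested genes. These values share the DMSO libraries with the contrast that chose the genes. SORL1 rose by 2.39 on the log2 scale (SE 0.08, edgeR adjusted p = 6.20e-13), NAV3 by 2.82 (SE 0.22, edgeR adjusted p = 6.54e-09) and PTAFR by 2.40 (SE 0.15, edgeR adjusted p = 6.50e-10). As folds, these rises were 5.26, 7.11 and 5.21.

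The falling genes stayed low under both drugs. ALDH1A3 changed by −3.27 (SE 0.19, edgeR adjusted p = 1.54e-10), TBC1D30 by −3.23 (SE 0.19, edgeR adjusted p = 2.63e-10) and FOXD1 by −1.87 (SE 0.13, edgeR adjusted p = 2.09e-09), which are 9.26-fold, 9.17-fold and 3.63-fold. Set against the difference between MI-503 and DMSO in mean CPM, the difference between combination and DMSO came to 49.9% for PTAFR, 62.7% for SORL1 and 77.4% for NAV3. For FOXD1 it came to 91.5%, and for both TBC1D30 and ALDH1A3 to 104%. On a linear scale such shares approach 100% for any gene that lies several-fold below DMSO in both MI-503 and the combination. As shares of the log2 fold change they were 73.8% for PTAFR, 80.9% for SORL1, 83.1% for FOXD1, 89.5% for NAV3, 115% for TBC1D30 and 117% for ALDH1A3, so FOXD1 lay among the rising genes on that scale. Each of these calls was kept in every alternative tried.

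**Figure D2:**
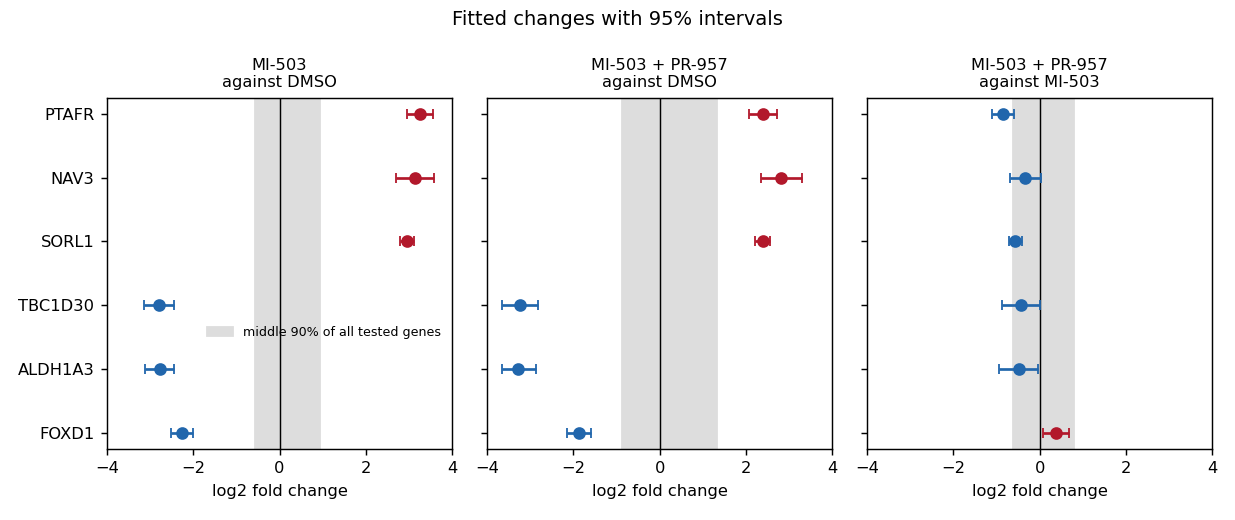
Log2 fold change of the 6 genes in the 3 contrasts with 95% intervals, over a band that holds the middle 90% of tested genes. In the combination against MI-503 the intervals of PTAFR, SORL1 and ALDH1A3 lie below 0 and that of FOXD1 above it; ALDH1A3 was not called after adjustment.

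The combination was then compared with MI-503, which asks what PR-957 adds. PTAFR and SORL1 were lower under both drugs and FOXD1 was higher, so 3 of the 6 genes were called, where 47.4% of all tested genes were (23.6% higher and 23.8% lower). PTAFR was 1.81-fold lower, with a difference of −0.85 on the log2 scale (95% interval −1.11 to −0.59, edgeR adjusted p = 2.83e-05). SORL1 was 1.48-fold lower, a change of −0.57 (−0.72 to −0.41, edgeR adjusted p = 6.96e-06). Neither overlapped between the groups, which held for 47.6% of tested genes (23.7% lower), and both calls were kept in every alternative. These values share the MI-503 libraries with the contrast that chose the genes.

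The other 4 genes were less settled. FOXD1 differed by 0.38 (0.09 to 0.68, edgeR adjusted p = 0.0333) with overlapping libraries, and without combination replicate 4 the difference was 0.10 (edgeR adjusted p = 0.498). NAV3 differed by −0.33 (−0.69 to 0.04, edgeR adjusted p = 0.128), TBC1D30 by −0.43 (−0.86 to 0.00, edgeR adjusted p = 0.0943) and ALDH1A3 by −0.48 (−0.93 to −0.04, edgeR adjusted p = 0.0708), none of them called. With the replicate number as a block over all libraries, ALDH1A3 (−0.47, edgeR adjusted p = 0.00236) and TBC1D30 (−0.36, edgeR adjusted p = 0.0491) were called, and NAV3 was not (−0.32, edgeR adjusted p = 0.0570). With the same block on the MI-503 and combination libraries alone, a fit added after the data were seen, ALDH1A3 (−0.48, edgeR adjusted p = 0.0228) and NAV3 (−0.28, edgeR adjusted p = 0.0441) were called and TBC1D30 was not (−0.33, edgeR adjusted p = 0.0518). Without combination replicate 1, which stood apart, 1 gene was called higher and 2 lower, the same numbers as with it.

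Relatives and pathway partners of each of the 6 were read from lists. Most of them moved less, which was largely fixed when the 6 were chosen as extremes of the same contrast. In MI-503 against DMSO, where 51.4% of tested genes were called (22.0% higher and 29.3% lower) with a median log2 fold change of −0.03, the middle 90% of genes lay between −0.56 and 0.93. Of the genes in the 6 lists, only DHRS9, FOXA2 and FOXD4 were called beyond 2-fold in that contrast. FOXA2 stood at 0.512 ± 0.140 CPM in DMSO and 0.211 ± 0.10 in MI-503 (−1.24 on the log2 scale). It passed the filter on low counts only through DMSO libraries. The filter therefore fixed its direction, and the value of FOXA2 is a description without a test.

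For platelet-activating factor, the ligand of PTAFR, 9 of 10 listed enzymes were tested, 3 were called higher and 2 lower in MI-503, and their median was −0.07. LPCAT2, which acetylates the precursor into the active lipid in inflammatory cells, rose from 34.9 ± 1.17 CPM in DMSO to 66.7 ± 0.807 in MI-503 (0.93, SE 0.04, edgeR adjusted p = 8.09e-11). In the combination it stayed at 65.6 ± 3.27 CPM, with no call against MI-503 (−0.02, edgeR adjusted p = 0.738), whereas PTAFR was lower there. LPCAT1 rose by 0.43 in MI-503 (edgeR adjusted p = 0.00154) and was lower in the combination than in MI-503 by −0.49 (edgeR adjusted p = 0.00112). Of the enzymes that break the lipid down, PAFAH1B3 was lower in the combination than in DMSO (−0.76, edgeR adjusted p = 6.03e-07) and PAFAH2 higher (0.48, edgeR adjusted p = 0.000244). CHPT1 (0.18) and PAFAH1B1 (−0.11) were called in MI-503 with small changes, and CEPT1 in the combination against DMSO (−0.25).

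Among the navigators and other proteins of microtubule ends, 13 of 13 were tested, and 2 were called higher and 4 lower in MI-503; the median was −0.10. NAV1, the paralog of NAV3, rose by 0.60 (SE 0.15, edgeR adjusted p = 0.00265), from 5.53 ± 0.692 to 8.41 ± 0.867 CPM. NAV2, the other paralog, was near the filter at 0.442 ± 0.0881 CPM in DMSO and 0.397 ± 0.0937 in MI-503. In the combination it stood at 0.139 ± 0.0183 CPM (−1.67 against DMSO). NAV2 passed the filter on low counts only through DMSO and MI-503 libraries. The filter thus favored a fall in the combination, and that value is a description without a test. The linker CLIP2 rose by 0.88 in MI-503 (SE 0.07, edgeR adjusted p = 2.52e-08). MAPRE3, an end-binding protein, was not called in MI-503 (−0.67, edgeR adjusted p = 0.0705) and rose in the combination to 2.70 ± 0.179 CPM from 0.616 ± 0.111 in DMSO (2.11, SE 0.23, edgeR adjusted p = 3.63e-07). CLIP1 was higher there as well (0.63, edgeR adjusted p = 2.49e-07). CLASP2 (−0.25), MAPRE1 (−0.24) and CKAP5 (−0.22), which bind or build microtubule ends, were called lower in MI-503, and MACF1 in the combination against DMSO (−0.30).

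Of 18 partners of SORL1 (VPS10 receptors, retromer subunits and adaptors), 16 were tested, 1 was called higher and 5 lower in MI-503, or 37.5% beside 51.4% of all tested genes, and the median was −0.04. SORT1, the receptor of the same family with the clearest change, fell from 8.12 ± 0.835 CPM in DMSO to 4.48 ± 0.488 in MI-503 (−0.86, SE 0.11, edgeR adjusted p = 4.95e-06). It was lower again in the combination, at 2.66 ± 0.203 CPM (−1.61 against DMSO, edgeR adjusted p = 6.85e-09). The retromer subunit VPS26A changed by −0.31 in MI-503 (edgeR adjusted p = 2.31e-05) and the sorting nexin SNX5 by −0.30 (edgeR adjusted p = 0.000246), while SNX27, an adaptor of retromer, rose by 0.24 (edgeR adjusted p = 0.00132). In the combination against MI-503, the adaptor GGA3 was higher by 0.22 (edgeR adjusted p = 0.00292) and the sorting nexin SNX3 lower (−0.17, edgeR adjusted p = 0.00363).

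TBC-domain proteins other than TBC1D30 were split in MI-503 and mostly higher in the combination. Of 33 tested from 34 listed, 8 were called higher and 7 lower in MI-503 against DMSO, with a median of 0.02. In the combination against DMSO 19 were higher and 5 lower, a share called of 72.7% with a median of 0.22. Of all tested genes 64.5% were called there (31.7% higher and 32.8% lower), with a median of 0.01. In the combination against MI-503 these were 17 and 5, or 66.7% beside 47.4% of all tested genes (23.6% higher and 23.8% lower), with a median of 0.19. TBC1D2 went from 8.82 ± 0.555 CPM in DMSO to 16.8 ± 0.974 in MI-503 and 33.0 ± 7.65 in the combination (1.89 against DMSO, SE 0.13, edgeR adjusted p = 1.00e-09). EVI5L rose by 1.33 (edgeR adjusted p = 1.02e-09) and TBC1D17 by 1.15 (edgeR adjusted p = 1.58e-08) in the same contrast, both called higher in MI-503 as well. RABGAP1L was also higher there (0.62, edgeR adjusted p = 3.80e-08) and TBC1D2B lower (−0.63, edgeR adjusted p = 3.48e-09). In MI-503, TBC1D10C rose by 0.66 and TBC1D31 changed by −0.44 (edgeR adjusted p = 2.37e-05 for both).

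In the retinoic acid list, 10 of 21 genes were tested, and 4 were called higher and 1 lower in MI-503; the median was 0.16. DHRS9, a retinol dehydrogenase, rose from 24.1 ± 3.29 CPM in DMSO to 54.6 ± 1.06 in MI-503 (1.18, SE 0.08, edgeR adjusted p = 2.66e-09) and stood at 29.7 ± 2.79 in the combination, lower than in MI-503 (−0.87, edgeR adjusted p = 2.32e-07) and higher than in DMSO (0.31, edgeR adjusted p = 0.00385). CYP26B1, which degrades retinoic acid, went from 6.03 ± 1.87 to 12.0 ± 0.876 CPM (0.99, SE 0.17, edgeR adjusted p = 0.000107) and stood at 5.55 ± 1.43 in the combination (−1.16 against MI-503, edgeR adjusted p = 7.01e-05). RDH10, which makes the substrate of ALDH1A3, was lower in MI-503 (−0.36, edgeR adjusted p = 0.000221). The receptors RARA and RXRA were higher by 0.30 (edgeR adjusted p = 0.000310) and 0.16 (edgeR adjusted p = 0.00538). RDH11, a retinal reductase, was called higher in the combination against DMSO (0.65, edgeR adjusted p = 2.71e-07).

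Of 39 other forkhead genes, 20 were tested, and 4 were called higher and 7 lower in MI-503; the median was −0.04. FOXD4, of the same subfamily as FOXD1, fell from 7.68 ± 0.925 CPM in DMSO to 3.03 ± 0.300 in MI-503 (−1.33, SE 0.12, edgeR adjusted p = 1.04e-07) and was at 3.07 ± 0.225 in the combination. FOXD4 has near-identical copies in the genome, so its count is uncertain. FOXP2 changed by −0.60 (edgeR adjusted p = 3.78e-06) and FOXP1 by −0.38 (edgeR adjusted p = 1.10e-05), while FOXN3 rose by 0.34 (edgeR adjusted p = 3.49e-06) and FOXO1 by 0.49 (edgeR adjusted p = 0.000242). In the combination against DMSO 2 were higher and 10 lower, or 60.0% beside 64.5% of all tested genes (31.7% higher and 32.8% lower), with a median of −0.25. FOXM1, which drives genes of mitosis, was among these at −0.82 (edgeR adjusted p = 6.42e-10), as were FOXL2 at −1.22 (edgeR adjusted p = 1.02e-07) and FOXA1 at −0.44 (edgeR adjusted p = 4.03e-05).

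**Figure D3:**
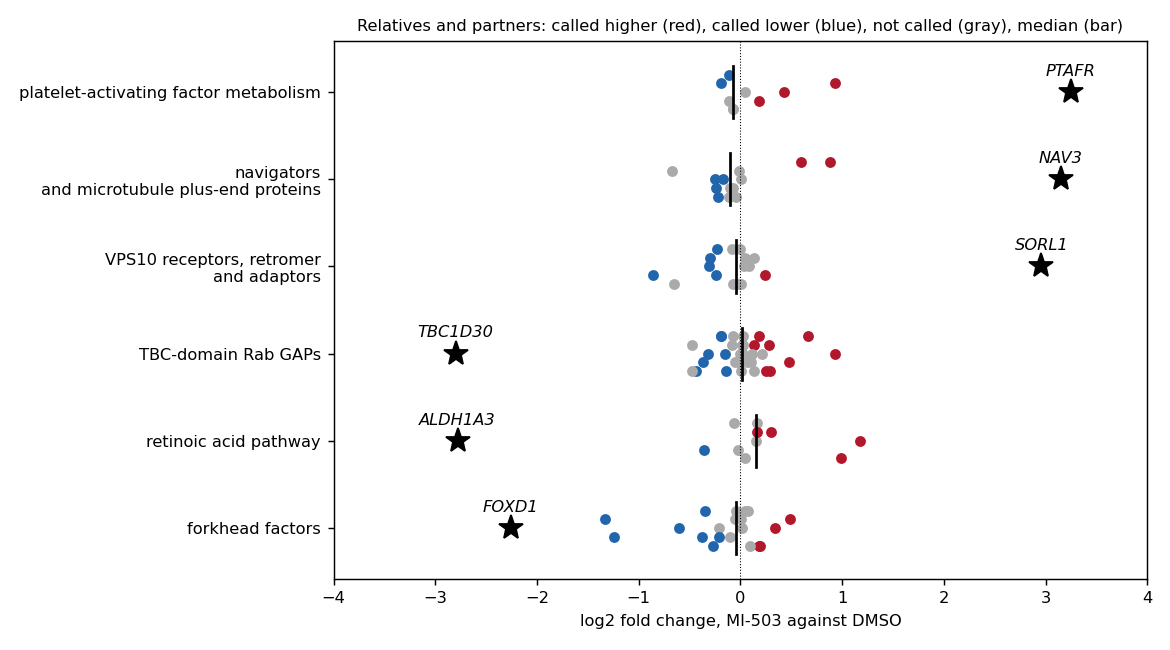
Log2 fold change in MI-503 against DMSO of each tested gene of the 6 lists (points, colored by call), with the list median as a bar and the gene each list was built around as a star. List genes lie between −1.33 (FOXD4) and 1.18 (DHRS9), while the stars, chosen by this contrast, lie beyond 2 in size.

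The genes next to the 6 on the chromosome were read as well. Of 26 tested neighbors and overlapping genes, 5 were called higher and 11 lower in MI-503 against DMSO, or 61.5%, beside 51.4% of all tested genes, and 3 changed beyond 2-fold. LOC105369535, inside SORL1, is in these counts, although it passed the filter on low counts only through libraries with MI-503. Around PTAFR no neighbor changed by more than 0.22 in size. DNAJC8, 6.34 kb away, differed by −0.18 (edgeR adjusted p = 0.00225). The nearest tested neighbor of NAV3 lay 506 kb away, and none of its neighbors changed beyond 2-fold. Beside SORL1, SC5D at 139 kb was called higher (0.39, edgeR adjusted p = 3.86e-05). UBASH3B at 1022 kb was called lower (−0.67, edgeR adjusted p = 2.91e-07), and TECTA and JHY were not called.

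Beside the falling genes, neighbors moved in both directions. MSRB3, a methionine sulfoxide reductase 398 kb from TBC1D30, rose by 1.06 (SE 0.05, edgeR adjusted p = 2.72e-11) and was lower in the combination than in MI-503 by −0.84 (edgeR adjusted p = 9.60e-10). LRRK1 begins 2.39 kb beyond ALDH1A3 and differed by −0.12 (edgeR adjusted p = 0.0411). TNPO1, an importin 530 kb from FOXD1, fell by 0.70 (edgeR adjusted p = 7.36e-09).

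LOC101927751, which overlaps ALDH1A3 on the opposite strand, moved in the direction of its host. It went from 9.99 ± 0.816 CPM in DMSO to 4.75 ± 0.270 in MI-503 (−1.07, SE 0.09, edgeR adjusted p = 6.93e-08). LOC105369535, inside SORL1 on the opposite strand, had 6 counts over the DMSO libraries and 83 in all, and differed by 2.62 on the log2 scale (SE 0.61). It passed the filter on low counts only through libraries with MI-503. The filter therefore fixed its direction, and the value is a description without a test. LOC105369536, also on the strand opposite SORL1, stayed below the filter with 8 counts in all. Counting ignored strand, so reads of these genes and of their hosts cannot be told apart.

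**Figure D4:**
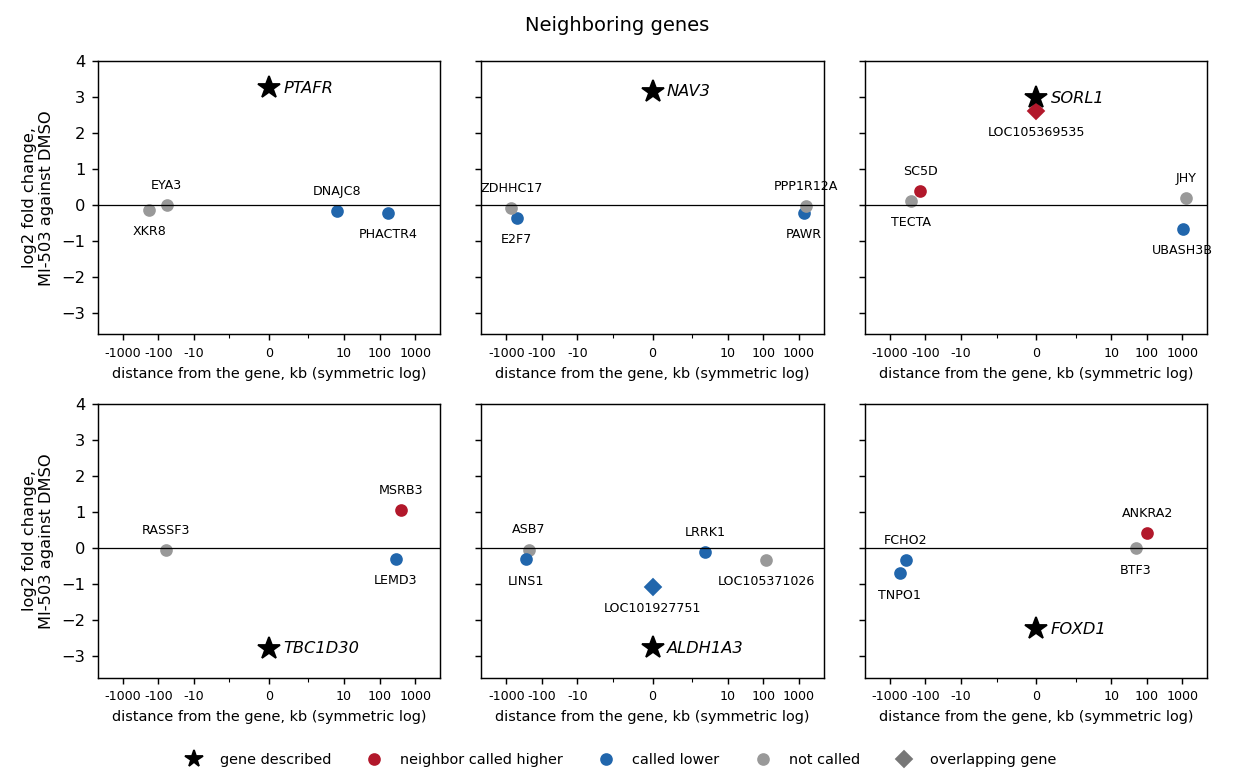
Log2 fold change in MI-503 against DMSO of tested genes on each side of the 6 genes, 1 of them not shown, against their distance in kb (symmetric log axis). The neighbors shown lie between −1.07 and 1.06 apart from LOC105369535 inside SORL1, at 2.62.

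The genes whose pattern over the 11 libraries was closest to each of the 6 were found by the root mean square difference of centered log2 CPM, among 10040 genes of at least 5 mean CPM. For SORL1 these were BPI (0.19), HAL (0.22) and PTAFR (0.24). PTAFR was nearest to SORL1 (0.24), HAL (0.27) and BPI (0.29), and NAV3 to BPI (0.24), SORL1 (0.28) and PTAFR (0.30). The 3 rising genes were thus among the nearest of one another, apart from NAV3, which was in neither of the other lists. TBC1D30 and ALDH1A3 were each other's nearest gene (0.21), followed at a distance by MT2A (0.39 and 0.44). FOXD1 stood apart from both, nearest to NCAM2 (0.23), a neural cell adhesion molecule that went from 30.4 ± 1.01 CPM in DMSO to 8.53 ± 0.853 in MI-503 and 9.74 ± 1.35 in the combination, then to SOCS2-AS1 (0.34) and SP9 (0.35). These likenesses rest largely on the group means, of which the contrast of MI-503 with DMSO chose the 6 genes.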

How the data were processed

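RNA of 11 MOLM-13 libraries was sequenced. The authors deposited raw counts, 1 value per gene and library, without normalization. Per the submitters' processing notes, Trimmomatic 0.39, STAR 2.7.10a and featureCounts 2.0.1 were used. Per the file headers, exons of the hg38 RefSeq annotation were counted without regard to strand, leaving out fragments that overlap several genes or map to several places, from alignments that had been filtered in a way the sources do not describe. Such fragments are missing for genes with shared exons or near-identical copies. The joined table differed from the single-library files in 0 cells. Deposited tables of differential expression by the authors (log2 fold changes, standard errors and p-values from DESeq2) were not used.

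Groups followed the labels. The 6 genes, the lists, motifs and markers were chosen with earlier results of these data known. Counts were filtered with filterByExpr of edgeR 4.0.16 (minimum count 10, minimum total 15) in R 4.3.3, and scaled by TMM (factors 0.956 to 1.06). All 11 libraries entered 1 fit with a mean per group and 8 residual degrees of freedom, and each contrast was given a two-sided quasi-likelihood test in edgeR, adjusted over 14683 genes by Benjamini and Hochberg. Calls required an adjusted p under 0.05. The procedure was tested on simulated data. Depth of 18.9 to 41.2 M fragments and 3 or 4 libraries per group set the precision. Named genes were the 6, list genes called beyond 2-fold or among the 4 smallest adjusted p of a list in a contrast, neighbors (2 tested genes on each side, and genes within the span), the 3 nearest patterns, and genes ranked beside the 6. ALDH1A1, ALDH1A2 and FOXO1 were added after their values were seen.

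Same-numbered libraries were checked for pairing by the correlation of their deviations from the group means. Between MI-503 and the combination these were 0.14, 0.15 and 0.21, all above 0.1, the limit set for taking numbers as pairs. Other-numbered libraries of these groups ran from −0.27 to 0.27, so the pairing is a hint from the data and not known from the design. Between DMSO and MI-503 they were −0.25, 0.28, 0.06 and 0.18, and between DMSO and the combination −0.06, 0.11 and 0.08, so no pairing was taken there. The alternatives were RLE or upper-quartile factors, no filter, DESeq2 1.42.0, an adjusted p under 0.01, the replicate block, and leaving out each library in turn. A marker gene and a neighboring gene are not reported here by name. Promoters were searched for motifs on both strands. Python 3.11.15 with pandas 2.3.3 and numpy 2.4.6 was used for summaries and matplotlib 3.10.9 for figures.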

Additional observations from a re-analysis of the deposited data

Results flagged for a closer look

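ALDH1A3 in DMSO replicate 2 stood apart from its group at 42.9 CPM, where the other 3 DMSO libraries lay between 27.8 and 29.0 CPM. Its gap to the nearest of them was 0.919 of the whole range of the group, beyond Dixon's 95% critical value for 4 samples. Of the 12 groups of 4 libraries checked (6 genes in DMSO and in MI-503), this was the only one. Chance alone gives about 1 in 20 for each group checked, not for all 12 together, and the groups share libraries. The cause was not tested.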

How the results depend on the processing

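Counts of called genes stayed within 1.5 times of the reported ones in all alternatives. Leaving out 1 library, they ran from 2851 to 4141 higher and 3732 to 4217 lower in MI-503 against DMSO, from 4295 to 4689 and 4534 to 4763 in the combination against DMSO, and from 2578 to 3485 and 3145 to 4059 in the combination against MI-503. Upper-quartile factors gave 3968 higher and 3356 lower in MI-503 against DMSO, beside 3235 and 4307 with TMM; the median change over all genes was then 0.03 in place of −0.03. The replicate block gave 3304 higher and 4326 lower there, 4543 and 4769 in the combination against DMSO, and 3365 and 3448 in the combination against MI-503. On the MI-503 and combination libraries alone, an alternative chosen after seeing the data, the block gave 2912 and 2989. Apart from the calls of TBC1D30, ALDH1A3 and NAV3 given in the report, the block changed no call among the 6 genes.

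Of 210 tested values of the 6 genes under alternatives in the 2 contrasts with the combination, 190 kept their side of the threshold, 7 lost a call, 13 gained one, and 0 changed sign, all 20 in the combination against MI-503. FOXD1 lost its call with DESeq2 (adjusted p = 0.0643), under the stricter threshold, and without combination replicate 2 (edgeR adjusted p = 0.0940) or 4 (0.498) or MI-503 replicate 1 (0.0803), 2 (0.0503) or 3 (0.0709), over a range of 1.65e-06 to 0.498. NAV3 gained a call with no filter (edgeR adjusted p = 0.00141) and without combination replicate 4 (−0.63, 0.00301), over 0.00141 to 0.405. TBC1D30 gained one with no filter (edgeR adjusted p = 5.74e-07) and without DMSO replicate 2 (0.0467) or 4 (0.0329) or combination replicate 2 (−0.64, 0.0302), over 5.74e-07 to 0.202. ALDH1A3 gained one with no filter (edgeR adjusted p = 0.000714) and without DMSO replicate 2 (0.0206) or combination replicate 2 (−0.72, 0.0185), over 0.000714 to 0.235. Without the filter, adjusted p-values were far below the main fit. For SORL1 in the combination against DMSO the edgeR adjusted p was 4.24e-275 beside 6.20e-13. The calls gained without the filter, and the low ends of these 4 ranges, rest on that fit and are less secure. The cause was not tested.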
